A study of Mus musculus with 12 samples.

Results

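Tumour necrosis factor (TNF), the lymphotoxins and the proteins that carry their signal were followed in BV2 cells, an established line of mouse microglia immortalised with retroviral oncogenes. The group holds 9 genes, picked by symbol: the ligands Tnf, Lta and Ltb, the receptors Tnfrsf1a and Tnfrsf1b, the adaptors Traf1 and Traf2, the ubiquitin ligase Birc3 and the feedback inhibitor Tnfaip3. All 9 are among the 24934 genes of the count table, and all 9 passed the filter on low counts which kept 13249 genes. RNA sequencing was done on 12 libraries, 4 in each of 3 groups. Acacetin cells were given 10 µM acacetin, a plant flavone, after deprivation of oxygen and glucose and re-oxygenation. Their treatment label says only Acacetin, and the deprivation is read from the design text of the series. OGD cells went through the same deprivation and re-oxygenation with no acacetin in their label, and Control cells carry no treatment in theirs. How long each step lasted was not given in the sources used here. BV2 is 1 cell line. The labels leave unsaid whether replicate libraries stem from separate cultures, so p-values may measure technical spread alone.

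TNF is made as a membrane protein, cut free by the metalloprotease ADAM17, and acts as a trimer on TNFR1 (gene Tnfrsf1a) and TNFR2 (gene Tnfrsf1b). Lymphotoxin-alpha, the product of Lta, is secreted as a trimer that binds the same receptors, or joins lymphotoxin-beta, the product of Ltb, in a membrane complex that binds a receptor of its own, encoded by Ltbr. Bound TNFR1 gathers TRADD, RIPK1, TRAF2 and the cIAP ubiquitin ligases, and the ubiquitin chains they build switch on NF-kB. NF-kB in turn induces Tnfaip3, whose product A20 trims those chains, and Birc3, which encodes cIAP2. Microglia are a main source of TNF in the injured brain.

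In mouse, Ltb, Tnf and Lta lie side by side on chromosome 17, and the 250 bases before their annotated starts are shown because the 3 neighbours differed in how far they moved. The sequences are from RefSeq (GRCm38.p6, an older build than the GRCm39 named in the submitters' processing notes). They lie at chr17:35205352-35205601 on the minus strand for Lta, chr17:35202008-35202257 on the minus strand for Tnf and chr17:35194257-35194506 on the plus strand for Ltb. Each is printed 5′ to 3′ on its gene's own strand, and capitals mark TATAAA or a match to the NF-kB consensus, both searched on both strands.
Lta: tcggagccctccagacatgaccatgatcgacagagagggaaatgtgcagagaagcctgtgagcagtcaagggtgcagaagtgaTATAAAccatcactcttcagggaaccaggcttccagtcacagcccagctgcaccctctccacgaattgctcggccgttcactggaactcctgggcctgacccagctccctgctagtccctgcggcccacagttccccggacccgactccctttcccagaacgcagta
Tnf: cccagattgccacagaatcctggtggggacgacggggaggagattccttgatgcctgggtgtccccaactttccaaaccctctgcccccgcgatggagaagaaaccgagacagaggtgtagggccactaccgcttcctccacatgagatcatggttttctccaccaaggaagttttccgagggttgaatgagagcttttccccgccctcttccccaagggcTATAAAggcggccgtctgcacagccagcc
Ltb: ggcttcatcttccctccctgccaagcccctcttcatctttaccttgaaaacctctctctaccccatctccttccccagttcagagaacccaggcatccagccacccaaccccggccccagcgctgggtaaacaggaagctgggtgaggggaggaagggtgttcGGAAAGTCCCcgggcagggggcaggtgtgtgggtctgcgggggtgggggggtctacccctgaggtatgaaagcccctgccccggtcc
In Tnf the TATAAA ended 24 bases before the start, and in Lta it ended 162 bases before it. The Ltb window held 1 NF-kB match, GGAAAGTCCC, whose near edge was 78 bases before the start. Of 32851 annotated promoter windows of this length, 12.4% held TATAAA and 7.25% held an NF-kB match. The hypoxia response core ACGTG was in 16.6% of all windows, its variant GCGTG in 28.2% and the AP-1 site TGANTCA in 6.75%, searched the same way. None of them was in the windows of Lta, Tnf or Ltb.

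Depth ran from 16427886 to 32693066 counted reads per library. Reads of 18S ribosomal RNA took 13.1% of OGD 2 and 21.3% of OGD 3, and 0.137% to 1.86% of the rest. Libraries also differed in how expression depended on gene length: set against the mean library, the log2-log2 slope was -0.21 at the lowest (Acacetin 1) and 0.29 at the highest (Acacetin 3). Of 13 microglia and macrophage markers, 12 were tested, with a summed level of 2906 to 4562 CPM in Acacetin, 3484 to 5001 CPM in OGD and 3921 to 4653 CPM in Control libraries. CPM is a read count scaled to a common library size, by TMM. P2ry12, a marker of resting microglia, had at most 3 reads in any library, so this defining marker was close to 0. Of the 12 tested markers, Csf1r was called higher and Cx3cr1 lower in OGD against Control (log2 fold changes 1.117 ± 0.14 and -1.07 ± 0.24). Csf1r was also called higher in Acacetin against Control (0.60 ± 0.14) and Aif1 and Cx3cr1 were called lower (-1.31 ± 0.23 and -0.68 ± 0.24), the Cx3cr1 call being lost in 13 of 18 alternatives.

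Lta and Ltb were lower in OGD than in Control cells and lower in Acacetin than in Control cells, while Acacetin and OGD libraries overlapped in all 9 genes. Among the 9 genes, 2 were called lower and 0 higher in OGD against Control, where 28.8% of all tested genes were called, 16.2% higher and 12.6% lower. The same 2 were called lower, and 0 higher, in Acacetin against Control, where 26.9% of all tested genes were called, 14.0% higher and 12.9% lower. In Acacetin against OGD edgeR called 0 of the 9 and 0% of all tested genes, with 0% in either direction. DESeq2 also called 0 of the 9 there, and 1 of them, Traf1, had an unadjusted p under 0.05. The comparisons share libraries, so they are not independent of each other. In bulk RNA, fewer cells of a type and less RNA per cell cannot be told apart.

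**Figure D1:**
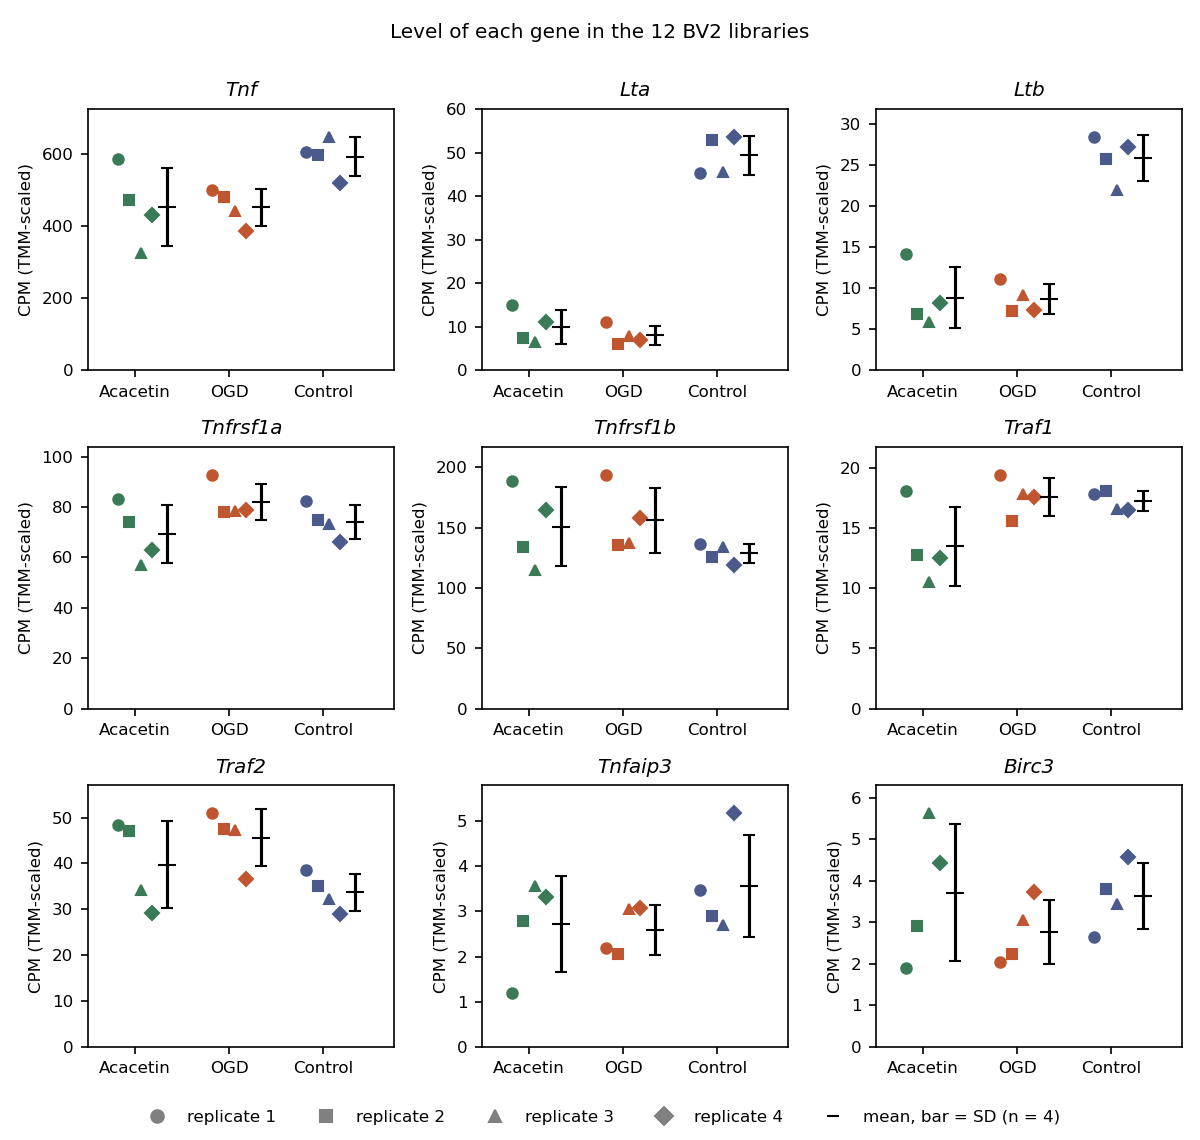
Level of each of the 9 genes (CPM, TMM-scaled, linear axis from 0) in the 4 Acacetin, 4 OGD and 4 Control libraries, with symbols for replicates and bars for mean and SD (n = 4). Lta and Ltb in all Acacetin and OGD libraries lie below all Control libraries.

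Lta had 14.9, 7.45, 6.49 and 11.2 CPM in Acacetin 1 to 4, 11.1, 6.09, 7.97 and 7.05 CPM in OGD 1 to 4, and 45.4, 52.9, 45.6 and 53.6 CPM in Control 1 to 4. Every Acacetin and OGD library was far below the lowest Control library, and the Acacetin and OGD ranges overlapped. In raw counts Lta had 236 to 347 reads in Acacetin, 102 to 352 in OGD and 1109 to 1617 in Control libraries. Its level in OGD was 6.11-fold lower than in Control (log2 fold change -2.61 ± 0.26, SE, n = 4 each, adjusted p = 4.80e-05 by edgeR's quasi-likelihood test), and 26 tested genes had a lower fold change. Its level in Acacetin was 4.95-fold lower than in Control (-2.31 ± 0.25, adjusted p = 0.000133). Between Acacetin and OGD the log2 fold change was 0.30 ± 0.25 with a 95% interval of -0.23 to 0.83 (adjusted p = 0.853), which does not show that the levels were alike. The fall against Control was called in each of the 18 alternatives run per comparison. Without OGD 2 and 3, the libraries with most 18S reads, it was -2.44 (adjusted p = 0.00319).

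Ltb, whose product anchors lymphotoxin to the membrane, had 14.2, 6.90, 5.96 and 8.27 CPM in Acacetin 1 to 4, 11.1, 7.19, 9.22 and 7.31 CPM in OGD 1 to 4, and 28.5, 25.8, 22.0 and 27.2 CPM in Control 1 to 4. Here too all 8 Acacetin and OGD libraries were below all 4 Control libraries, and Acacetin 1 was the highest of the 8. The level in OGD was 2.97-fold lower than in Control (log2 fold change -1.57 ± 0.25, adjusted p = 0.000556), and the level in Acacetin was 2.94-fold lower (-1.56 ± 0.25, adjusted p = 0.000806). Acacetin against OGD gave 0.015 ± 0.25, with an interval of -0.52 to 0.55 (adjusted p = 0.993). Both calls against Control were made in each of the 18 alternatives, and without OGD 2 and 3 the OGD value was -1.49 (adjusted p = 0.0131).

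Lymphocytes are the classical source of both lymphotoxins, and their markers were scarce. Summed T cell markers reached at most 0.258 CPM in Acacetin, 0.552 CPM in OGD and 0.491 CPM in Control libraries. Cd8a and Cd3g were not among the genes of the count table. Summed NK cell markers reached at most 0.110 CPM in Acacetin, 0.195 CPM in OGD and 0.0830 CPM in Control libraries. Of 5 B cell markers 1 was tested, Cd79b, a chain of the B cell receptor complex. The summed list ran from 0.670 to 1.47 CPM in Acacetin, 0.999 to 2.43 CPM in OGD and 3.17 to 4.56 CPM in Control libraries. Cd79b was most of it, at a mean of 0.951 CPM in Acacetin, 1.30 CPM in OGD and 3.70 CPM in Control. Cd79b fell in OGD against Control (log2 fold change -1.48 ± 0.35, adjusted p = 0.00582), a call lost without OGD 2 and 3 (-1.15, adjusted p = 0.0810). It also fell in Acacetin against Control (-1.97 ± 0.35, adjusted p = 0.00145), a call made in each of the 18 alternatives. The defining B cell genes Ms4a1 and Pax5 had at most 3 reads in any library. Of the oligodendrocyte list, Mbp averaged 1.26 CPM in Acacetin, 0.889 CPM in OGD and 1.99 CPM in Control. It was called lower in OGD against Control (-1.17 ± 0.27, adjusted p = 0.00547) but not in Acacetin against Control (-0.66, adjusted p = 0.0772). Mog was not among the genes of the count table. Of the neuron list, Tubb3 was called lower in Acacetin against Control, at 2.40 ± 0.948 and 4.63 ± 1.20 CPM (-0.96 ± 0.31, adjusted p = 0.0355), a call lost in 7 of 18 alternatives. The part of other cell types in the lymphotoxin values was not tested.

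Tnf, the most abundant of the 9 per length of transcript, changed far less. It had 586, 473, 325 and 432 CPM in Acacetin 1 to 4, 499, 482, 442 and 385 CPM in OGD 1 to 4, and 606, 597, 648 and 519 CPM in Control 1 to 4. All OGD libraries were below all Control libraries, by a narrow margin, while Acacetin 1 reached into the Control range. The log2 fold change in OGD against Control was -0.39 ± 0.17 (95% interval -0.76 to -0.023, adjusted p = 0.106), which misses the threshold of 0.05. In Acacetin against Control it was -0.38 ± 0.17 (adjusted p = 0.110). The Tnf result depended on the method. The OGD difference was called lower by DESeq2 (adjusted p = 0.0240), after removal of the trend with gene length (0.0116), with only the 8 libraries compared (0.0257), on FPKM with limma (0.0232 with 1 added and 0.0209 with 0.1 added) and without Control 4 (0.0362). The Acacetin difference from Control was called by DESeq2 (0.0420), after removal of the length trend (0.0416) and without Acacetin 1 (0.0137). Acacetin against OGD was 0.0063 ± 0.17, with an interval of -0.36 to 0.37 (adjusted p = 0.994).

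Counting the genes whose groups did not overlap in CPM, 3 of the 9 (Tnf, Lta and Ltb) were apart in OGD against Control, where 36.0% of tested genes were. In Acacetin against Control 2 of the 9 (Lta and Ltb) were apart, against 25.7% of tested genes, and in Acacetin against OGD 0 of the 9, against 2.35%. The median log2 fold change of the 9 was -0.39 in OGD against Control, 0.0063 in Acacetin against OGD and -0.36 in Acacetin against Control. Over all tested genes the medians were 0.026, -0.015 and 0.081 in the same order.

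**Figure D2:**
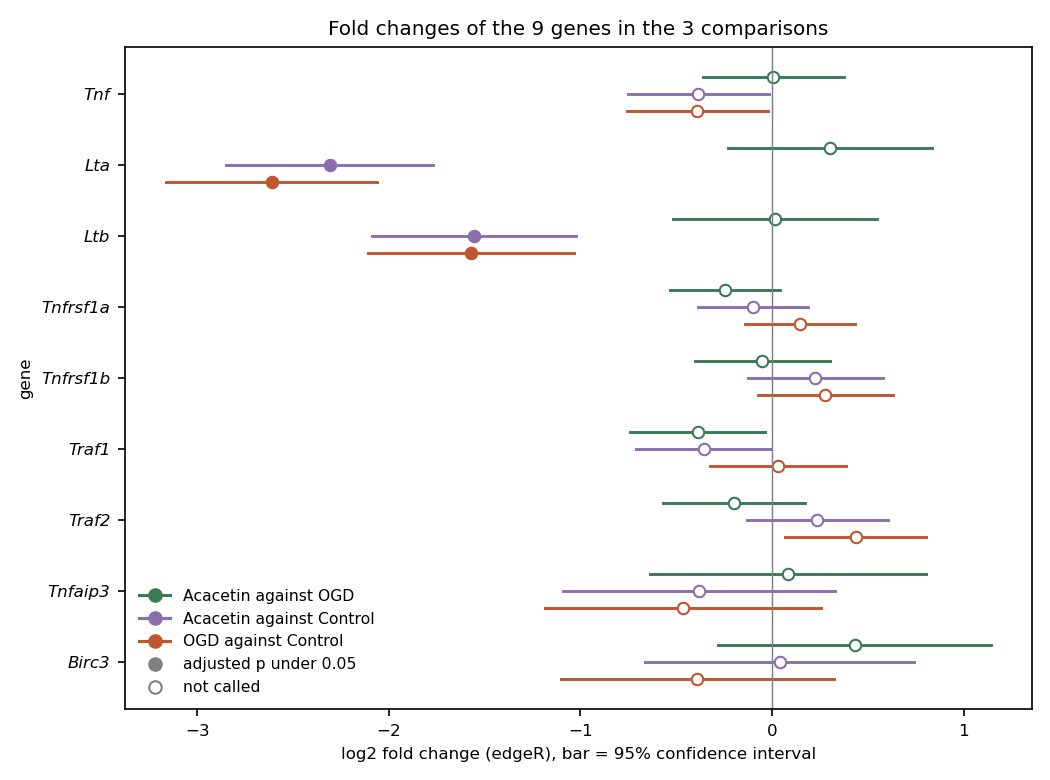
Log2 fold change of each of the 9 genes (edgeR, horizontal axis, bars give the 95% confidence interval) in Acacetin against OGD, Acacetin against Control and OGD against Control, with filled points at an adjusted p under 0.05. Only Lta and Ltb have filled points, at -2.31 and -1.56 in Acacetin against Control and -2.61 and -1.57 in OGD against Control.

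Ratios between 2 genes of the same library do not depend on how libraries are scaled to each other. By FPKM, which scales fragments by transcript length and depth, Tnf exceeded Lta 32.5-fold to 53.5-fold in Acacetin libraries, 37.9-fold to 66.8-fold in OGD libraries and 8.17-fold to 11.975-fold in Control libraries. The mean log2 ratio of Lta to Tnf was -5.60 ± 0.34 in OGD and -3.34 ± 0.25 in Control (SD, n = 4 each), a difference of -2.26. The ratio of Ltb to Tnf also kept Control apart, at a mean of -5.62 ± 0.30 in Acacetin, -5.60 ± 0.25 in OGD and -4.41 ± 0.27 in Control. The ratios show unequal change among the 3 ligand genes, not that any of them was constant.

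The 2 lymphotoxins also differed from each other. The log2 FPKM ratio of Lta to Ltb was 0.20 to 0.57 in Acacetin, -0.11 to 0.13 in OGD and 0.80 to 1.18 in Control libraries, so the 3 groups did not overlap. The gap between Acacetin and OGD was narrow, at 0.20 in Acacetin 1 and 0.13 in OGD 1. It rested on 314 Lta and 300 Ltb reads in Acacetin 1 and 352 of each in OGD 1. The mean ratio was 0.32 ± 0.17 in Acacetin, 0.0065 ± 0.12 in OGD and 1.07 ± 0.18 in Control (SD, n = 4 each). This ratio was looked at after its values were seen, and no test was run on it.

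**Figure D3:**
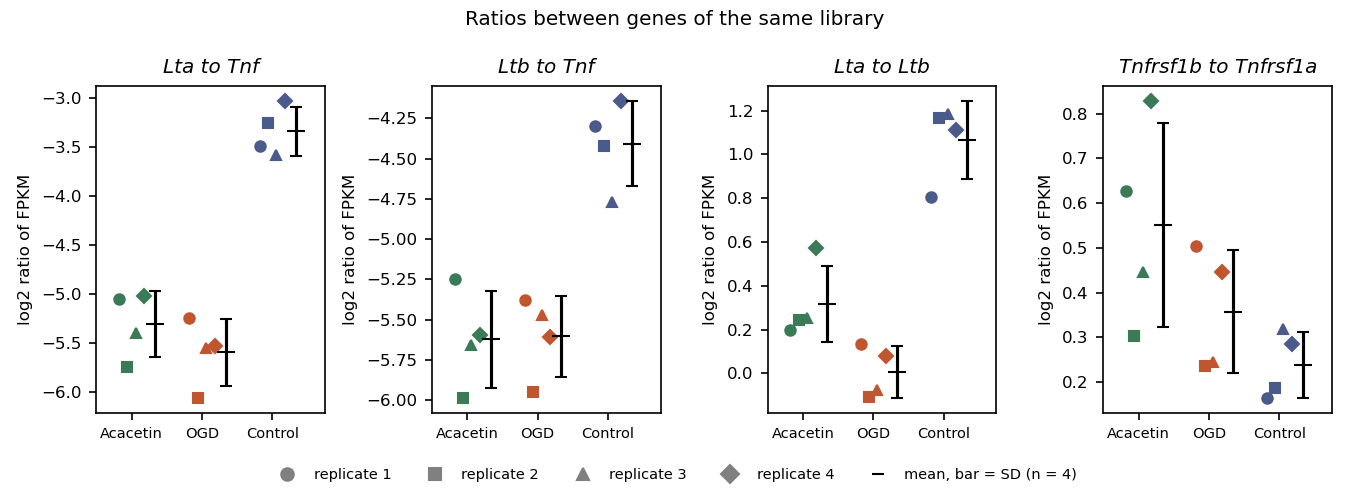
Log2 ratio of FPKM between 2 genes of the same library for Lta to Tnf, Ltb to Tnf, Lta to Ltb and Tnfrsf1b to Tnfrsf1a, each panel with its own vertical range, in the 4 Acacetin, 4 OGD and 4 Control libraries (bars give mean and SD, n = 4). In the first 3 panels every Control library lies above every Acacetin and OGD library. For Lta to Ltb, Acacetin (0.20 to 0.57) also lies above OGD (-0.11 to 0.13), by a narrow margin.

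The order of levels per length shifted with Lta. In Control the mean FPKM was 307 for Tnf, 30.5 for Lta, 28.6 for Tnfrsf1b, 24.3 for Tnfrsf1a and 14.5 for Ltb, with Traf2 at 5.60, Traf1 at 1.66, Birc3 at 0.623 and Tnfaip3 at 0.423. Lta exceeded Tnfrsf1b in 2 of 4 Control libraries, so that pair is not separated beyond its spread. In OGD the mean FPKM was 215 for Tnf, 32.9 for Tnfrsf1b, 25.04 for Tnfrsf1a, 6.92 for Traf2, 4.64 for Lta and 4.51 for Ltb. In Acacetin it was 255 for Tnf, 36.6 for Tnfrsf1b, 24.8 for Tnfrsf1a, 7.20 for Traf2, 6.61 for Lta and 5.27 for Ltb. Both receptors were above Lta in all 8 Acacetin and OGD libraries. FPKM ran low in OGD 2 and 3, where Tnfrsf1a had 19.8 and 17.2 FPKM, against 31.4 and 31.8 in OGD 1 and 4. In CPM the same OGD 2 and 3 had 78.0 and 78.4. These means order genes within a group and do not measure change between groups. By CPM Tnf averaged 454 in Acacetin, 452 in OGD and 592 in Control.

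Neither receptor was called in any comparison. Tnfrsf1a, the death domain receptor found on most cells, had 83.0, 73.9, 57.1 and 62.9 CPM in Acacetin, 92.7, 78.0, 78.4 and 78.8 CPM in OGD and 82.4, 74.7, 73.2 and 66.2 CPM in Control libraries. Its log2 fold change was 0.15 ± 0.13 in OGD against Control (adjusted p = 0.461) and -0.24 ± 0.13 in Acacetin against OGD (adjusted p = 0.8287). Tnfrsf1b, the receptor without a death domain that is prominent on immune cells, had 189, 134, 115 and 164 CPM in Acacetin, 194, 135, 137 and 158 CPM in OGD and 136, 125, 134 and 119 CPM in Control libraries. All groups overlapped for both receptors. For Tnfrsf1b the fold change was 0.28 ± 0.16 in OGD against Control (95% interval -0.074 to 0.63, adjusted p = 0.230), and for Acacetin against Control it was 0.23 ± 0.16 (adjusted p = 0.318). The log2 FPKM ratio of Tnfrsf1b to Tnfrsf1a averaged 0.55 ± 0.23 in Acacetin, 0.36 ± 0.14 in OGD and 0.24 ± 0.074 in Control, with overlapping ranges.

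Neither adaptor was called in any comparison. Traf2, which brings the cIAP ligases to the receptor, had 48.4, 47.1, 34.2 and 29.3 CPM in Acacetin, 51.0, 47.6, 47.3 and 36.7 CPM in OGD and 38.6, 35.0, 32.2 and 29.1 CPM in Control libraries. OGD 4 overlapped the Control range and the other OGD libraries were above it. The log2 fold change in OGD against Control was 0.44 ± 0.17 (adjusted p = 0.0737), and the difference was called with only the 8 libraries compared (adjusted p = 0.0198) and without OGD 4 (0.0411). In Acacetin against OGD it was -0.20 ± 0.17 (adjusted p = 0.861). Traf1, a partner of TRAF2 that NF-kB induces, had 18.1, 12.8, 10.5 and 12.5 CPM in Acacetin, 19.4, 15.5, 17.8 and 17.6 CPM in OGD and 17.8, 18.1, 16.5 and 16.5 CPM in Control libraries. Acacetin 1 lay among the OGD and Control libraries, and the other Acacetin libraries were below all of them. The fold change was -0.39 ± 0.16 in Acacetin against OGD (unadjusted p = 0.0334, adjusted p = 0.8287) and -0.36 ± 0.16 in Acacetin against Control (adjusted p = 0.120). Without Acacetin 1, the library with the lowest slope on gene length, Acacetin against Control was called (adjusted p = 0.00842), and without Acacetin 1 and 3 it was called as well (0.0485).

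Tnfaip3 and Birc3, the NF-kB target genes that feed back on the pathway, were the least abundant of the 9 per length and the least precise. Tnfaip3 had 1.19, 2.79, 3.57 and 3.33 CPM in Acacetin, 2.18, 2.05, 3.05 and 3.09 CPM in OGD and 3.48, 2.90, 2.70 and 5.18 CPM in Control libraries, from 25 to 156 reads each. Birc3 had 1.90, 2.91, 5.63 and 4.43 CPM in Acacetin, 2.05, 2.25, 3.05 and 3.74 CPM in OGD and 2.66, 3.82, 3.45 and 4.58 CPM in Control libraries, from 39 to 205 reads each. For both genes Acacetin 1 was the lowest of the 12 libraries and the groups overlapped. The Tnfaip3 fold change was -0.47 ± 0.34 in OGD against Control (95% interval -1.18 to 0.25, adjusted p = 0.330), and that of Birc3 was -0.39 ± 0.33 (-1.10 to 0.32, adjusted p = 0.419). Within Acacetin both genes followed the slope on gene length, which was -0.21, 0.030, 0.29 and 0.12 in Acacetin 1 to 4. Tnf, Tnfrsf1a and Traf1 ran in exactly the reverse order there, while Lta, Ltb, Tnfrsf1b and Traf2 followed neither order. The part of the slope in these values was not tested.

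The genes around the cluster were compared with it. In chromosome order the tested genes of a list of neighbours were Csnk2b, Gpank1, Bag6, Prrc2a, Aif1 and Lst1 on the Ltb side. After Ltb, Tnf and Lta came Nfkbil1, Atp6v1g2 and Ddx39b. Apom, between Gpank1 and Bag6, was too low to test. D17H6S53E, a protein-coding gene between Gpank1 and Apom, was not in the list. Of these 9 neighbours, 0 were called in OGD against Control by edgeR, where 28.8% of all tested genes were, with log2 fold changes from -0.59 for Aif1 to 0.40 for Prrc2a, and 1 was called higher without OGD 2 and 3. In Acacetin against Control, where 26.9% of all tested genes were called, 1 of the 9 was called, Aif1, which encodes the microglial calcium-binding protein IBA1. Aif1 averaged 7.16 ± 1.98 CPM in Acacetin and 17.7 ± 2.08 CPM in Control (SD, n = 4 each; log2 fold change -1.31 ± 0.23, adjusted p = 0.00122). Its OGD mean was 11.8 ± 2.98 CPM, and Acacetin against OGD was not called (-0.72 ± 0.23, adjusted p = 0.773). Lst1, next to Ltb, had fold changes of -0.44 ± 0.22 in OGD against Control (adjusted p = 0.158) and -0.49 ± 0.22 in Acacetin against Control (adjusted p = 0.112). Nfkbil1, next to Lta, had 0.16 ± 0.20 and -0.077 ± 0.20 in those comparisons.

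**Figure D4:**
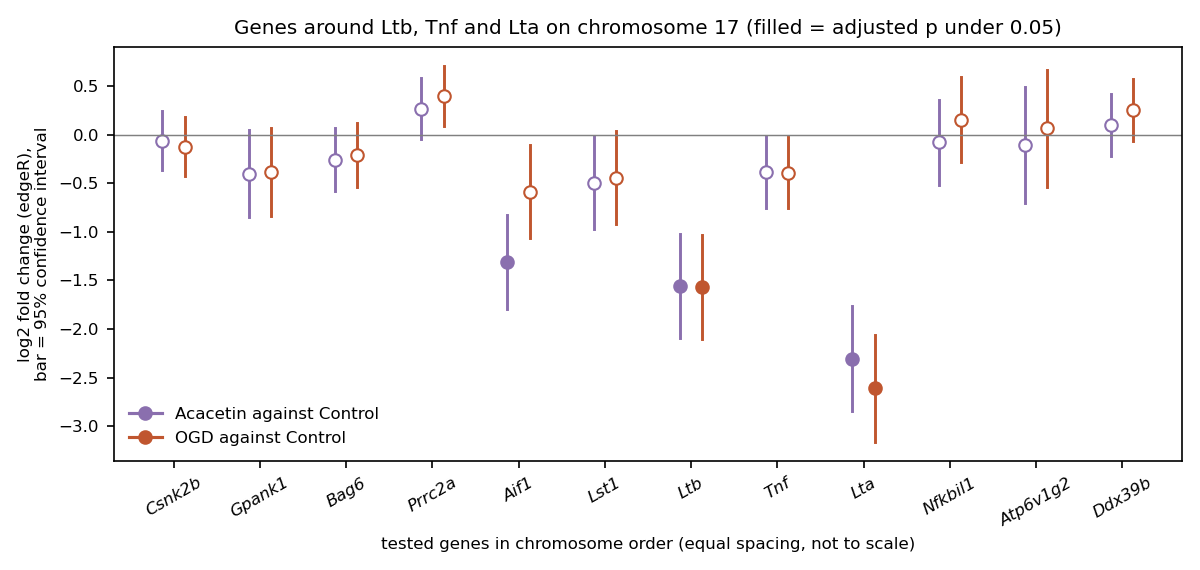
Log2 fold change (edgeR, bars give the 95% confidence interval) of the listed and tested genes around Ltb, Tnf and Lta on chromosome 17, in chromosome order with equal spacing, in Acacetin against Control and OGD against Control, with filled points at an adjusted p under 0.05. Lta and Ltb are filled in both comparisons, Aif1 at -1.31 in Acacetin against Control, and the open points run from -0.59 to 0.40.

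The genes whose pattern over the 12 libraries was most like that of Lta were sought among the 10134 genes averaging 2 CPM or more, by the mean absolute difference of centred log2 CPM. They were Slc2a8 at 0.15, Ypel3 at 0.15 and Coq8a at 0.17 log2 units, and Ltb ranked 82 and Tnf 1826. For Ltb they were Gm49388 at 0.094, Btbd2 at 0.10 and H2-Oa at 0.11, and Lta ranked 780.

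Other ligands and receptors of the TNF superfamily moved in both directions. As a measure for this and the following lists, 28.8% of all tested genes were called in OGD against Control and 26.9% in Acacetin against Control. Of 15 other ligands 5 were tested. Tnfsf13b, which encodes the B cell survival factor BAFF, rose to 12.3 ± 3.41 CPM in OGD, against 4.89 ± 0.68 CPM in Control (log2 fold change 1.33 ± 0.23, adjusted p = 0.000945), and to 9.89 ± 2.14 CPM in Acacetin (1.02 ± 0.23, adjusted p = 0.00584). Tnfsf12, which encodes TWEAK, fell in OGD (-0.62 ± 0.18, adjusted p = 0.0178) and in Acacetin (-0.89 ± 0.18, adjusted p = 0.00266) against Control. Tnfsf9, the 4-1BB ligand, was called lower in Acacetin against Control (-0.50 ± 0.16, adjusted p = 0.0357), a call lost in 8 of 18 alternatives. Of 16 tested receptors 1 was called higher and 2 lower in OGD against Control, and 0 higher and 1 lower in Acacetin against Control. Ltbr, the lymphotoxin-beta receptor, was called at 66.3 ± 6.38 CPM in OGD and 47.3 ± 9.003 CPM in Control (0.49 ± 0.17, adjusted p = 0.0438), a call lost in 10 of 18 alternatives. Without OGD 2 and 3, 0 of the 3 OGD calls of this list held, and Ltbr was at 0.49 (adjusted p = 0.120). Fas, a death receptor, was low and was called lower in both OGD (-1.32 ± 0.43) and Acacetin (-1.54 ± 0.43) against Control, calls lost in 8 and 3 of 17 alternatives. Tnfrsf13b was the other receptor called lower in OGD against Control, at -0.55 to -0.36 over 18 alternatives, with the call lost in 11.

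Among 19 adaptors and kinases of the receptor complex, 3 were called higher and 3 lower in OGD against Control, and 5 higher and 1 lower in Acacetin against Control. Of all tested genes, 28.8% and 26.9% were called in these comparisons. Rnf31, which encodes the catalytic subunit HOIP of the linear ubiquitin ligase, averaged 15.6 ± 2.86 CPM in Acacetin, 15.8 ± 2.61 CPM in OGD and 26.3 ± 2.40 CPM in Control. It fell in OGD (-0.74 ± 0.17, adjusted p = 0.00474) and in Acacetin (-0.75 ± 0.17, adjusted p = 0.0051) against Control. Tradd, the first adaptor on TNFR1, was called lower in OGD (-0.75 ± 0.22, adjusted p = 0.0225), as was Tab1 (-0.47 ± 0.15), and Ikbkb, a kinase subunit upstream of NF-kB, was called higher (0.43 ± 0.11). In Acacetin, Ripk1 was called higher than in Control (0.95 ± 0.28, adjusted p = 0.022), as were Ikbkg (0.54 ± 0.13) and Map3k7, which encodes TAK1 (1.15 ± 0.33). In Acacetin the calls of Ripk1, Map3k7, Rnf31 and Ikbkg were lost in 6, 5, 2 and 1 of 18 alternatives. In OGD the calls of Ikbkb, Tradd and Tab1 were lost in 6, 5 and 5 of 18. Without OGD 2 and 3, 1 of the 6 OGD calls remained, Rnf31.

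Of 10 deubiquitinases and partners of A20, 3 were called higher in OGD against Control, where 16.2% of all tested genes were. They were Otulin, which cuts linear chains (0.62 ± 0.17, adjusted p = 0.0154), and the A20-binding genes Tnip1 (0.51 ± 0.13, adjusted p = 0.00928) and Tnip2 (0.49 ± 0.13, adjusted p = 0.0144). Without OGD 2 and 3, 1 of these calls remained. In Acacetin against Control 0 were called higher and 1 lower, Tnip3 (-1.14 ± 0.37), a gene below 1 CPM whose call was lost in 10 of 17 alternatives. Of 10 NF-kB subunits and inhibitors, Relb and Nfkb2 were called lower in both comparisons, where 12.6% (OGD) and 12.9% (Acacetin) of all tested genes were. They are the pair of the non-canonical pathway that the lymphotoxin-beta receptor engages. Relb averaged 14.4 ± 3.18 CPM in Acacetin, 16.6 ± 2.74 CPM in OGD and 27.2 ± 3.56 CPM in Control, with fold changes of -0.92 ± 0.18 in Acacetin (adjusted p = 0.00243) and -0.71 ± 0.18 in OGD (adjusted p = 0.00918). Nfkb2 had -0.77 ± 0.17 in Acacetin (adjusted p = 0.00436) and -0.60 ± 0.17 in OGD (adjusted p = 0.0145). Rela was called higher in OGD (0.40 ± 0.14, adjusted p = 0.0474), a call lost in 13 of 18 alternatives. Without OGD 2 and 3 the 3 OGD calls of this list were lost, at -0.62 for Relb, -0.48 for Nfkb2 and 0.49 for Rela (adjusted p = 0.0652, 0.103 and 0.0549).

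In the death branch, 1 of 9 genes was called higher in OGD against Control, where 16.2% of all tested genes were. Bid, which links death receptors to mitochondria, averaged 75.2 ± 9.21 CPM in Acacetin, 87.2 ± 11.9 CPM in OGD and 32.0 ± 3.20 CPM in Control. It rose in OGD (1.45 ± 0.14, adjusted p = 3.70e-05) and in Acacetin (1.23 ± 0.14, adjusted p = 0.000135), and both calls were made in each of the 18 alternatives.

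Genes that act on TNF mRNA or on shedding gave 2 calls higher and 2 lower of 12 tested, in each comparison with Control. Of all tested genes, 28.8% (OGD) and 26.9% (Acacetin) were called there. Zfp36, which encodes tristetraprolin, a protein that destabilises TNF mRNA, averaged 53.1 ± 7.97 CPM in Acacetin, 63.8 ± 3.68 CPM in OGD and 102 ± 15.8 CPM in Control. It fell in OGD (-0.68 ± 0.14, adjusted p = 0.00306) and in Acacetin (-0.94 ± 0.14, adjusted p = 0.000622). Its relative Zfp36l2 rose in OGD (1.36 ± 0.19, adjusted p = 0.000271) and in Acacetin (1.27 ± 0.19, adjusted p = 0.000601). Mapk14, the p38 kinase, rose in OGD (0.74 ± 0.12, adjusted p = 0.000646) and in Acacetin (0.69 ± 0.12, adjusted p = 0.0013). Its OGD call was lost in 2 of 18 alternatives, those on FPKM. Litaf was called lower in OGD (-0.49 ± 0.14, adjusted p = 0.015) and Zfp36l1 in Acacetin (-0.89 ± 0.27, adjusted p = 0.0259), a call lost in 6 of 18 alternatives. The Litaf call was lost without OGD 2 and 3 (-0.47, adjusted p = 0.0516).

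Of 17 tested genes that TNF is known to induce, 1 was called higher and 5 lower in OGD against Control, and 0 higher and 7 lower in Acacetin against Control. Relb and Nfkb2 are in this list too. Of all tested genes, 16.2% were called higher and 12.6% lower in OGD against Control, and 14.0% and 12.9% in Acacetin against Control. Icam1, an adhesion molecule, rose to 103 ± 4.51 CPM in OGD, against 62.9 ± 4.35 CPM in Control (0.71 ± 0.12, adjusted p = 0.000809). Gadd45b, a stress gene, fell in OGD (-0.64 ± 0.14, adjusted p = 0.00441) and in Acacetin (-0.92 ± 0.14, adjusted p = 0.000697) against Control. Cxcl2, a neutrophil chemokine, was called lower in OGD (-0.97 ± 0.21, adjusted p = 0.004). It was called lower in Acacetin against Control too, at -1.06 to -0.74 over 18 alternatives, with the call lost in 1. Cxcl10 was lower in Acacetin (-1.39 ± 0.30, adjusted p = 0.00495). Without OGD 2 and 3, 1 gene was called higher in OGD against Control, Icam1, and 1 lower, Gadd45b, and both were among the first 6. The OGD call of Cxcl2 was lost there (-0.89, adjusted p = 0.0523). The list's median log2 fold change was -0.017 in OGD against Control and -0.094 in Acacetin against Control.

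In Acacetin against OGD, edgeR called 0 genes of each of these 8 lists and of the neighbours, as did DESeq2. Unadjusted p-values under 0.05 were found for 4 of 10 deubiquitinases and A20 partners, 3 of 17 TNF-induced genes, 2 of 16 receptors, 1 of 19 adaptors and 1 of 9 neighbours, and for 0 genes of the other lists. Over all genes 685 had an unadjusted p under 0.05, and the smallest adjusted p was 0.0686.

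**Figure D5:**
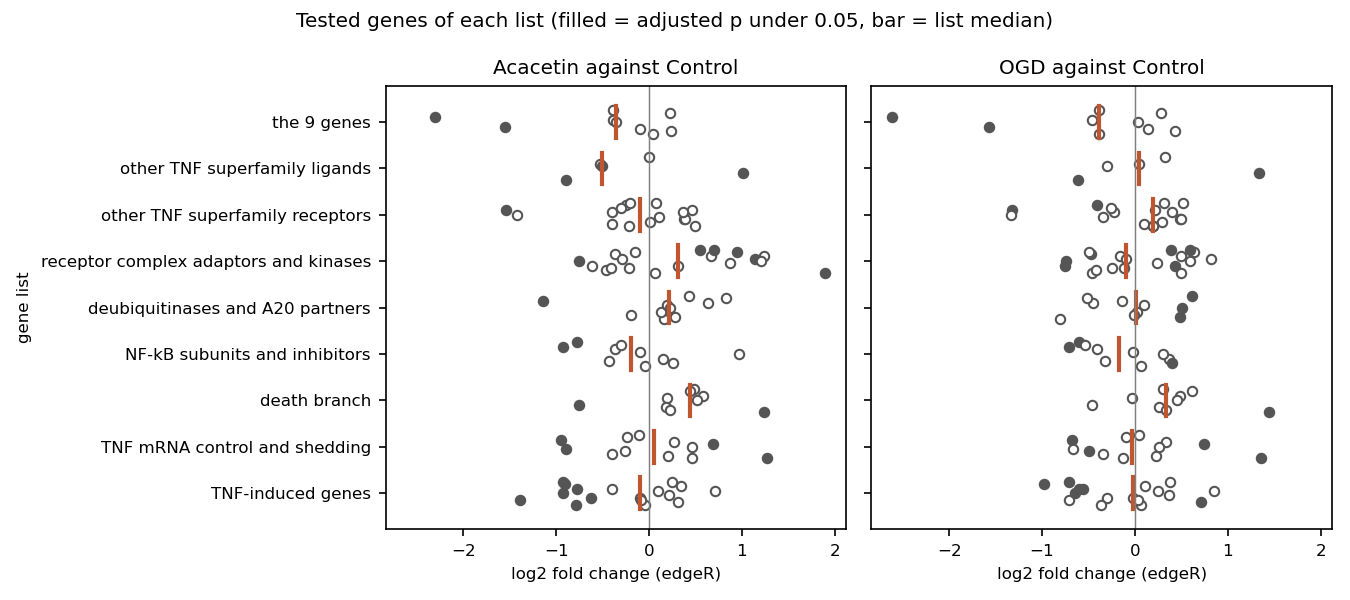
Log2 fold change (edgeR) of every tested gene of the 9 genes and the 8 related lists in Acacetin against Control and OGD against Control, 1 point per gene, filled at an adjusted p under 0.05, with a vertical bar at each list's median. Lta and Ltb are the filled points of the top line, and the medians of the lists run from -0.50 to 0.44 in Acacetin against Control.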

How the data were processed

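RNA of BV2 cells was sequenced in 12 libraries after stranded mRNA preparation, per the labels' protocols. Of tools and builds, bcl2fastq, HISAT2, DESeq2 and GRCm39 appear in the submitters' processing notes, without roles. Which read counter, annotation release and strand setting served was not given in the sources used here. What the authors deposited was a table of raw counts per gene and a table of FPKM values. All 12 columns of each matched a library by name, and 0 columns had no sample.

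The test on counts was that of edgeR 4.0.16 (R 4.3.3). After filterByExpr (minimum count 10, total 15) 13249 genes were left, and 1 quasi-likelihood fit of all 12 libraries with TMM scaling gave the 3 comparisons as contrasts. Tests were two-sided, and p-values were adjusted over all tested genes by the Benjamini-Hochberg method, with a call at an adjusted p under 0.05. The SE was the absolute log2 fold change divided by the square root of F. CPM used TMM-scaled library sizes, and patterns were compared on log2 CPM (prior count 2). The FPKM values the authors deposited were used for levels between genes and for ratios. PCR copies were not told apart by molecular identifiers, so depth in reads may overstate the number of molecules counted.

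The 9 genes are always named. Each related list names up to 4 called genes of smallest p per comparison, each called member its 3 most similar genes, and the cluster its listed and tested neighbours. Other names were chosen after their values were seen. A gene that the rule would name in the death branch is not reported here. The members and lists were chosen with earlier results of these data known. Promoter windows were matched by symbol for 9 of 9 members.

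Alternatives were DESeq2 1.42.0, its size factors in edgeR, no filter, a mean of at least 1 CPM, the replicate number as a block, removal of a trend with gene length (lowess, span 0.5), only the 8 libraries compared, limma 3.58.1 on log2 FPKM with 1 or 0.1 added, and leaving out OGD 2 and 3, Acacetin 1 and 3, or each library in turn. Counts of members and of list genes under each alternative were added after the data were seen. The fitting steps were tested on simulated data.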

Additional observations from a re-analysis of the deposited data

Results flagged for a closer look

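Of 27 sets of 4 libraries (9 genes in 3 groups), 1 held a library far from the others. Tnfrsf1a stood at 92.7 CPM in OGD 1, while the other OGD libraries lay between 78.0 and 78.8 CPM. The gap to the nearest library was 0.9421 of the group's whole range, past Dixon's critical value for 4 libraries. Chance alone marks about 1 in 20 such sets, so 1 in 27 is near that rate.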

How the results depend on the processing

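The calls of Lta and Ltb against Control were made in each of the 18 alternatives run for each comparison. Genes called in OGD against Control numbered 2010 without OGD 2 and 3, of which 1937 were among the 3813, and with only the 8 libraries compared 4 of the 9 genes were called, beside 4882 of 12840 genes. In Acacetin against OGD the 0 became 36 with DESeq2, 8 with no filter, 4 with the length trend removed, 1 with only the 8 libraries compared, 4 without Acacetin 1 and 3, and 0 to 9 leaving out 1 library. In Acacetin against Control, leaving out 1 library gave 2373 to 5818 genes (5818 without Acacetin 1) and 2 to 4 of the 9. On FPKM plus 0.1 the median of all genes shifted to -0.11 in OGD against Control, 0.24 in Acacetin against OGD and 0.17 in Acacetin against Control, and on FPKM plus 1 to -0.039, 0.16 and 0.095.

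The following values reversed direction, and none was called in such a fit. In OGD against Control, Traf1 took -0.0049 with DESeq2, -0.0061 with its size factors, -0.064 on FPKM plus 1, -0.12 on FPKM plus 0.1 and -0.021 to 0.087 leaving out 1 library, and Tnfrsf1a took -0.0052 and -0.0073 on FPKM plus 1 and plus 0.1. In Acacetin against OGD, FPKM plus 1 and plus 0.1 gave 0.034 and 0.037 for Tnfrsf1a (-0.24 in edgeR), 0.22 and 0.23 for Tnfrsf1b, and 0.062 and 0.072 for Traf2 (-0.20 in edgeR). Ltb took -0.026 without OGD 2 and 3 and -0.20 without Acacetin 1 and 3, and Tnfaip3 -0.017 with the length trend removed. Leaving out 1 library gave -0.14 to 0.14 for Tnf, -0.31 to 0.16 for Ltb, -0.18 to 0.071 for Tnfrsf1b and -0.068 to 0.32 for Tnfaip3. In Acacetin against Control, Birc3 took -0.018 with the length trend removed and -0.23 to 0.25 leaving out 1 library, and Tnfrsf1a 0.029 and 0.030 on FPKM plus 1 and plus 0.1. The cause was not tested.

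Replicate numbers are shared by the groups, but same-numbered libraries did not all deviate together (correlations from -0.29 to 0.51). Replicate 4 was its own best match in each comparison (0.51, 0.38 and 0.40). So was replicate 1 in OGD against Control (0.17) and in Acacetin against Control (0.37), and replicate 2 in Acacetin against OGD (0.32). Replicate 3 was its own best match in no comparison. Whether the numbers mark a shared batch or culture was not tested. With the replicate block 4572 genes were called in OGD against Control, 2 in Acacetin against OGD and 4279 in Acacetin against Control. Under the block Traf2 was called in OGD against Control (adjusted p = 0.0099), and near-0 values turned to -0.0046 for Tnf and -0.023 for Ltb in Acacetin against OGD and to -0.035 for Birc3 in Acacetin against Control. Tnfaip3 and Birc3, with 25 to 205 reads per library, are the genes that depth limits most.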
